A study of Mus musculus with 12 samples.

Results

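The microglia signature genes are C1qa, C1qb, C1qc, Csf1r, Cx3cr1, P2ry12, Trem2, Ctss, Gpr34 and Olfml3, 10 genes that mark the resident macrophages of the brain. They are 10 of the 19057 genes that the platform annotation names, and every probe given to them was taken, 13 of the 45281 probes of the array. Csf1r, P2ry12 and Gpr34 had 2 probes each and the other genes 1. Messenger RNA was measured in whole hippocampus, a forebrain structure needed for spatial memory, on Illumina bead arrays with 1 array per sample. All mice were C57BL/6J males 3 weeks old. Of the 12 arrays, 6 came from ethanol mice and 6 from control mice. Dams of the ethanol mice could choose to drink 10% ethanol between 0.5 and 8.5 days post coitum, which spans implantation and gastrulation and ends as the first microglial progenitors form. What the control dams drank, and whether the mice of a group came from separate litters, is not given in the sources used here, so the p-values rest on the spread among single samples, in which technical spread and litter cannot be told apart. Each of 2 beadchips carried 3 ethanol and 3 control arrays.

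Microglia arise from yolk sac progenitors, enter the brain before birth and depend on the CSF1 receptor for survival. In the juvenile hippocampus they remove surplus synapses, a process in which complement C1q and the fractalkine receptor CX3CR1 take part in mice. P2RY12, GPR34 and OLFML3 belong to the resting state of these cells, TREM2 senses lipids, and cathepsin S degrades proteins in their lysosomes. Because the tissue was measured in bulk, fewer microglia and less RNA per microglial cell cannot be told apart.

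Between 20804 and 21672 probes were detected per array, at a detection p-value under 0.05. Of the 13 member probes, 12 were detected on all 12 arrays and were tested. The second P2ry12 probe was detected on 0 of 12 arrays, with a raw intensity of 100.5 to 137.7, and no difference is given for it. Other microglia markers were read as a check of the label. Tmem119, Fcrls, Siglech, Aif1, Tyrobp and Sall1 were each detected on all 12 arrays on at least 1 probe, the transcription factor gene Spi1 on 5 arrays and the integrin gene Itgam on 1, and the leukocyte antigen gene Ptprc on 0 arrays with each of its 4 probes. Of 13 genes of monocytes and neutrophils 1 had a tested probe, Vim, which other brain cells also express, and Ccr2 was detected on 0 arrays. Among genes of border macrophages, which line vessels and meninges, 9 of 12 were tested and 5 were detected on all 12 arrays. 2 features of the arrays touch the results. Ethanol replicates 1 and 3 and control replicates 1 and 4 were low in Ttr, the choroid plexus gene of the thyroid hormone carrier, at 8.33 to 11.00 log2 signal against 15.56 to 15.81 on the other 8 arrays. Ethanol replicate 1 had a score of -32.08 on principal component 2 of all tested probes, and the scores of the other 11 arrays lay between -7.21 and 18.85.

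Comparing ethanol with control mice asks whether these genes still differed in the juvenile hippocampus after an exposure that ended early in gestation. No member gene passed the test. By limma, with p-values adjusted by the Benjamini-Hochberg method across 21263 probes, 0 of 12 member probes passed an adjusted p of 0.05, beside 0% of all probes, and 0 of 12 had an unadjusted p under 0.05, beside 4.81% of all probes. Under the alternatives run, this unadjusted count went from 0 to 2, with 2 without ethanol replicate 6 and without control replicate 3. Every group of ethanol values overlapped its control values, so 0 of 12 probes were separate over the 12 arrays, beside 0.202% of all probes. Of the 12 probes, 10 had lower means in ethanol mice and 2 had higher means, while 49.3% of all tested probes had lower means in ethanol. The median difference of the 12 probes was -0.09 on the log2 scale (ethanol minus control), and the median of all probes was 0.00172. With arrays scaled to a common median, 8 member probes had lower and 4 higher means in ethanol mice, with a median of -0.03, where the median of all probes was 0.05. The widest 95% interval among the members was that of Olfml3, which reached -0.66, a fold of 0.634. The plot of signals on each array shows the overlap of the groups.

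**Figure D1:**
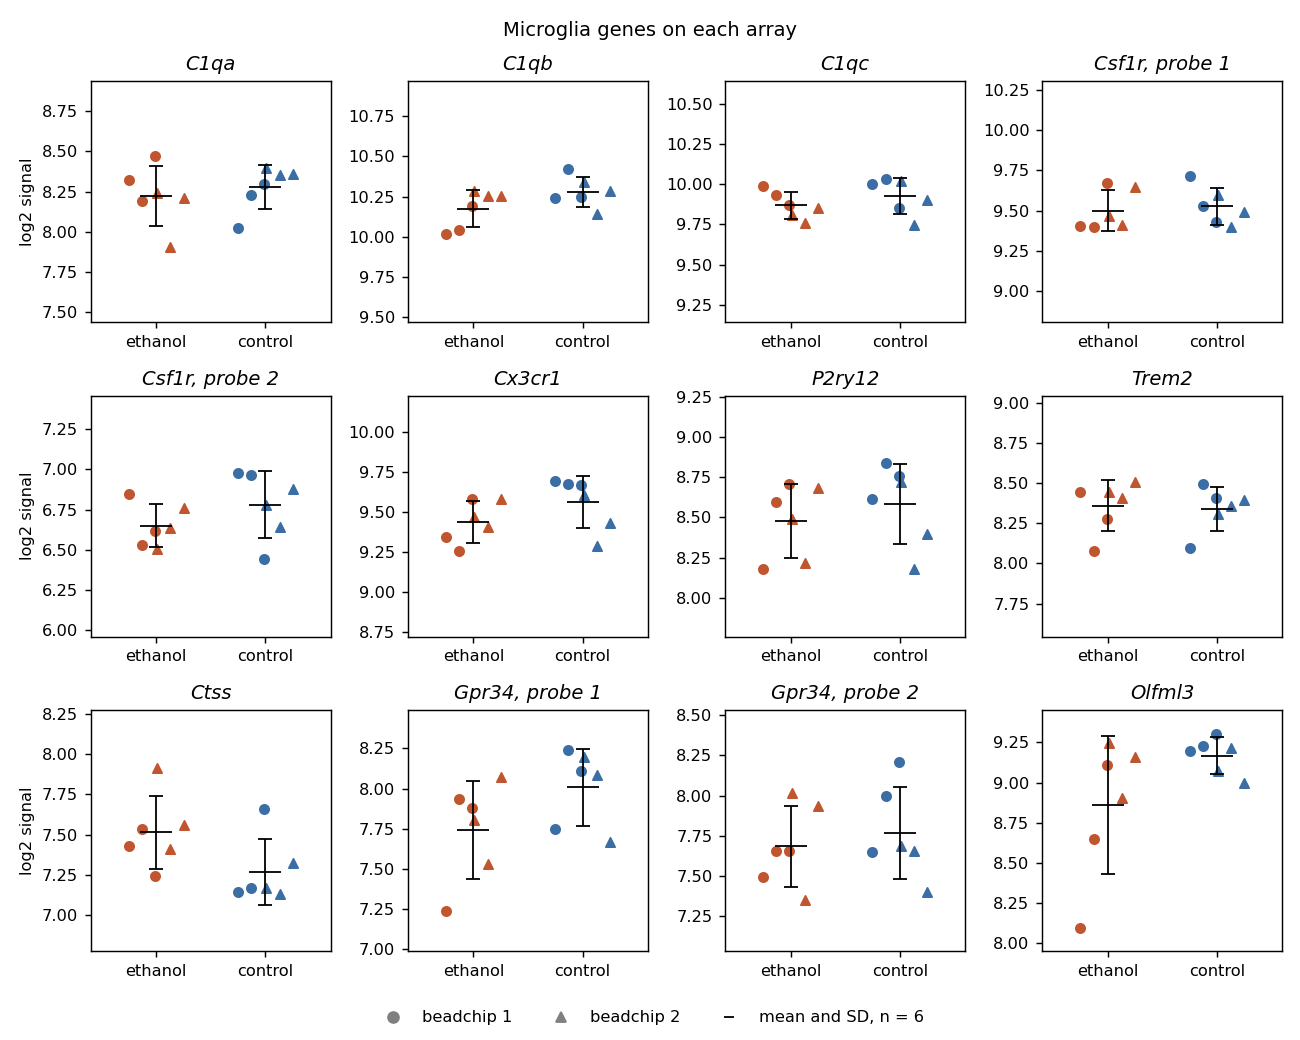
Log2 signal of the 12 tested member probes on each array, ethanol arrays on the left and control arrays on the right of each panel; circles are beadchip 1, triangles beadchip 2, and bars the mean and SD of 6 arrays. Every panel spans the same height of log2 signal. The groups overlap in every panel, the lowest Olfml3 value is an ethanol array at 8.10, and in the Ctss panel 1 control array at 7.66 lies above the other 5.

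The first role is that of complement. C1qa, C1qb and C1qc encode the 3 chains of C1q, which together form the molecule that recognises tagged surfaces and starts the classical complement cascade, and their genes lie next to each other on chromosome 4. C1qa had log2 signals of 7.90 to 8.47 in ethanol mice (median 8.23), against 8.02 to 8.40 in control mice (median 8.33). Its difference was -0.05 (95% interval -0.26 to 0.15), and 0.00104 with arrays scaled to a common median. C1qb had 10.02 to 10.29 in ethanol mice (median 10.22) and 10.14 to 10.42 in control mice (median 10.27), and 2 ethanol arrays, replicates 1 and 2, were below every control array. The C1qb difference was -0.10 (-0.26 to 0.05), and -0.0352 with that scaling. C1qc, with the smallest spread of the members, had 9.76 to 9.99 in ethanol mice (median 9.86) and 9.75 to 10.04 in control mice (median 9.95), a difference of -0.06 (-0.21 to 0.09). The C1qc difference was -0.00024 with that scaling, and it ran from -0.0951 without control replicate 5 to -0.0371 without ethanol replicate 5. The groups overlapped for each chain, and each adjusted p by limma was 1.00.

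The sequences around the transcription start are shown for C1qb and C1qc, because the chains are made in fixed proportion for 1 molecule while their signals over the arrays are compared further on. RefSeq promoter sequences (build GRCm38.p6, 250 bases before to 50 after the start) had no entry for C1qa and Gpr34. Csf1r was left out, and whether its promoter holds the letters searched for was not tested. The sequences of the other 7 of the 10 members were taken. They were searched on both strands for GAGGAA, the core that the myeloid factor PU.1 (the product of Spi1) prefers, and for its longer form GAGGAAGT, which contains it. The capitals mark GAGGAA or its reverse complement TTCCTC. The C1qb promoter is chr4:136886151-136886450, minus strand, with the core at position -30 from the start. The C1qc promoter is chr4:136892865-136893164, minus strand, with the core on the opposite strand at position -193 as part of the longer form.
C1qb: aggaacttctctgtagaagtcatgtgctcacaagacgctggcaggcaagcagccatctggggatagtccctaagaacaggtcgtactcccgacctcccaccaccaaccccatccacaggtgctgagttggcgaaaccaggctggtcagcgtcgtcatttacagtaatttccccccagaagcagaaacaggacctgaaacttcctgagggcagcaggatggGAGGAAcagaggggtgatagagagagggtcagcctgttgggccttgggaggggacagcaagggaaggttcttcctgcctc
C1qc: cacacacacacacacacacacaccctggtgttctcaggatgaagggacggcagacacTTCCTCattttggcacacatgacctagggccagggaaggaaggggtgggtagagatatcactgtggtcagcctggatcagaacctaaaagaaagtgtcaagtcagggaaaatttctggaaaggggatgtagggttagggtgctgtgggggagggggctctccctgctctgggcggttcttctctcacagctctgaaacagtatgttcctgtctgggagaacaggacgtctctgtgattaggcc
Of all 32851 promoters of this length, 28.3% held the core and 3.2% the longer form. Of the 7 members searched, 4 held the core, and these shares were not tested against each other. The other pair was Trem2, with 1 copy, and Ctss, with 2 copies, of which 1 is part of the longer form. A match describes letters in this window and not a bound site.

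The second role is that of surface receptors. Csf1r encodes the receptor for the growth factors CSF1 and IL-34. On its brighter probe it had log2 signals of 9.40 to 9.67 in ethanol mice (median 9.44), against 9.40 to 9.72 in control mice (median 9.51), a difference of -0.03 (95% interval -0.20 to 0.14). This small difference changed sign when arrays were scaled to a common median (0.0258). The dimmer Csf1r probe had 6.50 to 6.85 in ethanol mice (median 6.62) and 6.44 to 6.98 in control mice (median 6.83), a difference of -0.13 (-0.35 to 0.08). Over the 12 arrays both Csf1r probes correlated at r = 0.44 (Spearman rho 0.42, permutation p = 0.146 and 0.175).

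Cx3cr1 encodes the receptor for fractalkine, a chemokine that neurons display. It had log2 signals of 9.26 to 9.58 in ethanol mice (median 9.44), against 9.29 to 9.69 in control mice (median 9.64). The Cx3cr1 difference was -0.12 (95% interval -0.31 to 0.07), and ethanol replicate 2, the lowest of the 12 arrays, was the single one below every control array. P2ry12 encodes the ADP receptor that steers microglial processes towards injury. On its detected probe it had 8.18 to 8.71 in ethanol mice (median 8.54) and 8.18 to 8.84 in control mice (median 8.67), a difference of -0.11 (-0.38 to 0.17). This ran from -0.187 without control replicate 5 to -0.0462 without ethanol replicate 1, and was -0.049 with arrays scaled to a common median, where Cx3cr1 was -0.0628.

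Trem2 encodes a lipid-sensing receptor that signals through the adaptor TYROBP. It had 8.08 to 8.51 in ethanol mice (median 8.42) and 8.09 to 8.49 in control mice (median 8.37), a difference of 0.02 (95% interval -0.17 to 0.21) that was -0.0532 without the 4 arrays low in Ttr. Gpr34, a receptor for lysophosphatidylserine, was read by a pair of probes of like brightness. The first had 7.24 to 8.07 in ethanol mice (median 7.84) and 7.67 to 8.24 in control mice (median 8.10), with 2 ethanol arrays, replicates 1 and 5, below every control array. Its difference was -0.27 (-0.58 to 0.05), and -0.165 without ethanol replicate 1. The second Gpr34 probe had 7.35 to 8.02 in ethanol mice (median 7.66) and 7.40 to 8.21 in control mice (median 7.67), a difference of -0.08 (-0.39 to 0.23). The pair correlated over the arrays at r = 0.65 (rho 0.76, permutation p = 0.0227 and 0.0063). No receptor probe passed the test by limma (adjusted p = 1.00 for each).

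The third role is that of proteins outside the plasma membrane. Ctss encodes cathepsin S, a cysteine protease of the lysosome that can also be secreted. It had log2 signals of 7.24 to 7.91 in ethanol mice (median 7.48), against 7.13 to 7.66 in control mice (median 7.17). Control replicate 3 was the highest control array, and the other 5 control arrays ran from 7.13 to 7.32. The Ctss difference of 0.25 (95% interval -0.00472 to 0.50, a fold of 1.19) was the largest upward one among the members, with an unadjusted p of 0.0538 and an adjusted p of 1.00 by limma. Without control replicate 3 it was 0.328 (unadjusted p = 0.00866, adjusted p = 0.943 by limma), and over all single arrays left out it ran from 0.17 to 0.33.

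Olfml3 encodes a secreted olfactomedin-like glycoprotein. It had the widest spread of the members, with 8.10 to 9.25 in ethanol mice (median 9.01) against 9.00 to 9.30 in control mice (median 9.21). Ethanol replicates 1, 2 and 5 were below every control array, at 8.10, 8.65 and 8.90, while ethanol replicates 4 and 6 lay inside the control range, as did replicate 3. The SD was 0.43 in ethanol mice and 0.11 in control mice (n = 6 each). The difference of -0.31 (95% interval -0.66 to 0.04, a fold of 0.808) was the lowest among the members and did not pass the test (unadjusted p = 0.0807, adjusted p = 1.00 by limma). Without ethanol replicate 1, and without the 4 arrays low in Ttr, the Olfml3 difference was -0.155 and -0.196, and without ethanol replicate 4 it was -0.385 (unadjusted p = 0.0345, adjusted p = 1.00 by limma).

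On each beadchip the comparison has 3 ethanol and 3 control arrays, fitted together so that both beadchips share 1 estimate of the spread. On beadchip 1, 10 of 12 member probes had lower means in ethanol mice, beside 49.5% of all probes, with a median difference of -0.17 where all probes had 0.00197. On beadchip 2, 4 of 12 had lower means, beside 50.1% of all probes, with a median of 0.01. By limma 0 of 12 passed an adjusted p of 0.05 on either beadchip, beside 0% of all probes on each. At an unadjusted p under 0.05 there were 3 of 12 on beadchip 1, beside 4.83% of all probes, and 1 of 12 on beadchip 2, beside 4.58%. In the direction of these members the shares of all probes were 2.05% lower on beadchip 1 and 2.1% higher on beadchip 2. Under the alternatives run, the unadjusted counts went from 1 to 3 on beadchip 1 and from 0 to 2 on beadchip 2. The beadchip 1 count was 1 with scaling to a common median and with only the 6 arrays of that beadchip. The beadchip 2 count was 0 without control replicate 4 and without control replicate 5.

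Those 3 on beadchip 1 were C1qb, Cx3cr1 and Olfml3, each with all 3 ethanol arrays below all 3 control arrays, which 3.41% of all probes showed. C1qb had 10.02, 10.04 and 10.19 in ethanol mice, against 10.24, 10.25 and 10.42 in control mice, a difference of -0.22 (95% interval -0.43 to -0.01; unadjusted p = 0.0433 and adjusted p = 0.984 by limma). Cx3cr1 had 9.26, 9.34 and 9.58 in ethanol mice, against 9.67, 9.67 and 9.69 in control mice, a difference of -0.28 (-0.53 to -0.04; unadjusted p = 0.0287 and adjusted p = 0.965 by limma). Olfml3 had 8.10, 8.65 and 9.11 in ethanol mice, against 9.20, 9.23 and 9.30 in control mice, a difference of -0.62 (-1.06 to -0.18; unadjusted p = 0.00934 and adjusted p = 0.925 by limma). Without ethanol replicate 1 these beadchip 1 differences were -0.186 for C1qb, -0.258 for Cx3cr1 and -0.364 for Olfml3 (unadjusted p = 0.11, 0.0714 and 0.0364, each with an adjusted p of 1.00 by limma). With 3 arrays a group, an exact permutation test within 1 beadchip could not reach 0.05.

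On beadchip 2 the same genes lay close to 0, at 0.01 for C1qb, 0.04 for Cx3cr1 and 0.01 for Olfml3. There Ctss was the probe with an unadjusted p under 0.05. It had 7.41, 7.56 and 7.91 in ethanol mice, against 7.13, 7.17 and 7.32 in control mice, a difference of 0.42 (95% interval 0.06 to 0.78; unadjusted p = 0.0254 and adjusted p = 1.00 by limma), and 0.08 on beadchip 1. Without ethanol replicate 4 the Ctss difference on beadchip 2 was 0.277. Trem2 shared the order of Ctss on beadchip 2, with 8.41, 8.44 and 8.51 in ethanol mice above 8.31, 8.35 and 8.39 in control mice, a separation upward that 5.67% of all probes showed. C1qa had the opposite order there, with 7.90, 8.21 and 8.24 in ethanol mice below 8.36, 8.36 and 8.40 in control mice, which 6.36% of all probes showed, while on beadchip 1 its difference was 0.15. The plot of differences by beadchip sets these side by side.

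**Figure D2:**
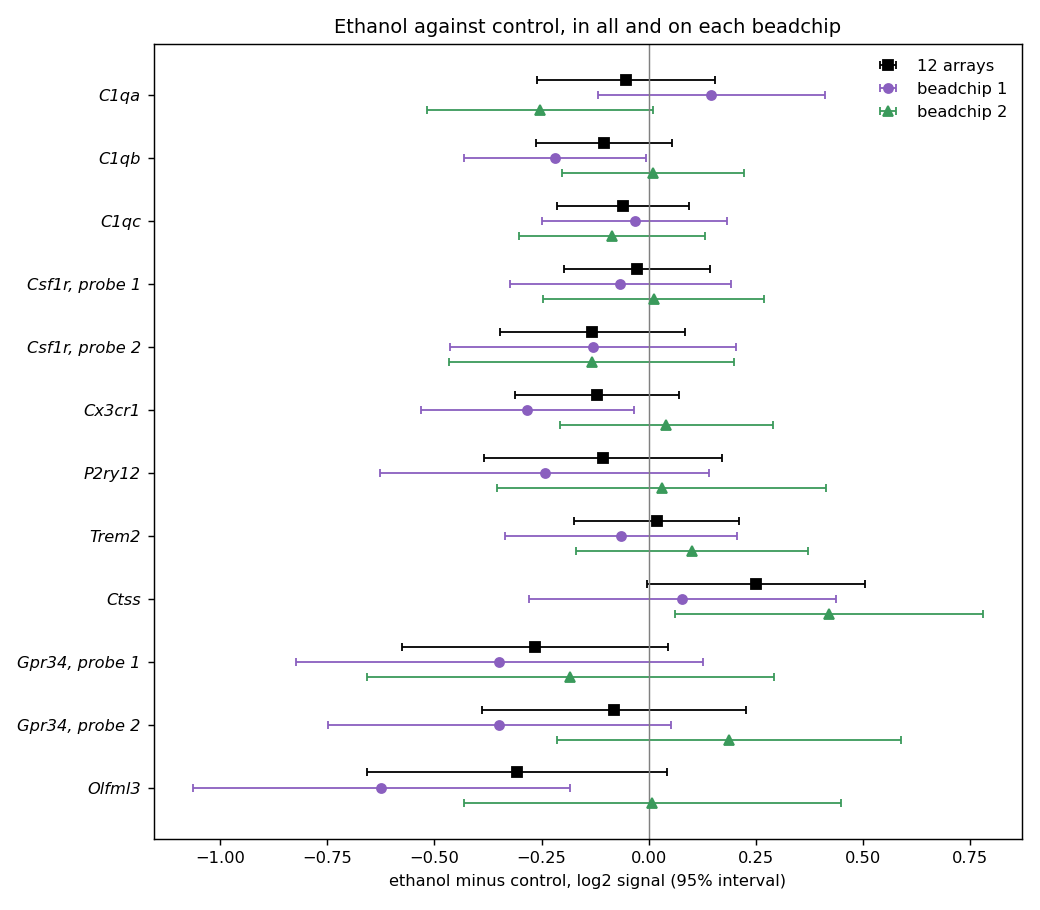
Ethanol minus control difference in log2 signal of the 12 tested member probes with 95% intervals of the limma fit, over 12 arrays (black squares), on beadchip 1 (purple circles) and on beadchip 2 (green triangles). All intervals over 12 arrays hold 0; those of C1qb, Cx3cr1 and Olfml3 on beadchip 1 and of Ctss on beadchip 2 do not.

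The difference between the beadchips was itself tested as an interaction. Of the 12 member probes 0 passed an adjusted p of 0.05 by limma, beside 0% of all probes, and 2 had an unadjusted p under 0.05, beside 4.2% of all probes. The value was below 0 for 3 of 12, beside 51% of all probes. The 2 were C1qa, whose ethanol effect on beadchip 2 minus that on beadchip 1 was -0.40 (95% interval -0.77 to -0.03), and Olfml3 at 0.63 (0.01 to 1.25), each with an adjusted p of 0.999 by limma. Under the alternatives run, the count at an unadjusted p under 0.05 went from 0 to 4, with 4 for the authors' processed table. Without the 4 arrays low in Ttr the C1qa value was -0.17, and without ethanol replicate 1 the Olfml3 value was 0.372. Beadchip 1 held 3 of the 4 arrays low in Ttr, and the part of that imbalance in these values was not tested. For the mean of beadchip 2 minus that of beadchip 1, 0 of 12 probes had an unadjusted p under 0.05, beside 11.2% of all probes, and 0 of 12 had an adjusted p under 0.05, beside 0.0282% of all probes. It was below 0 for 7 of 12, beside 53.8% of all probes. The largest such difference was that of Olfml3, at 0.17 (-0.18 to 0.52).

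How far the members varied together over the arrays was read from 1 probe a gene, the brightest tested one, which gave 45 pairs. Their median Pearson correlation was 0.16 (Spearman 0.20), and 31 of 45 pairs were positive. Over all pairs of the 11401 tested genes the median was 0.00235, and 32.8% of pairs lay at or above 0.16. By permutation with Benjamini-Hochberg adjustment over the 45 pairs, 0 passed 0.05 for either measure, and 7 had an unadjusted p under 0.05 for Pearson r and 3 for Spearman rho. The share of all gene pairs under 0.05 is not given here, so 7 and 3 of 45 cannot be read as an excess. All arrays share 1 tissue, platform and normalization, and genes on the same arrays are not independent. Within the groups the median r was 0.25 in ethanol mice and 0.23 in control mice, and on the 8 arrays high in Ttr it was 0.33. It was 0.07 on beadchip 1 and 0.26 on beadchip 2, 0.24 without ethanol replicate 1, and 0.08 when each pair was read without the 2 arrays farthest from the median of its first gene.

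**Figure D3:**
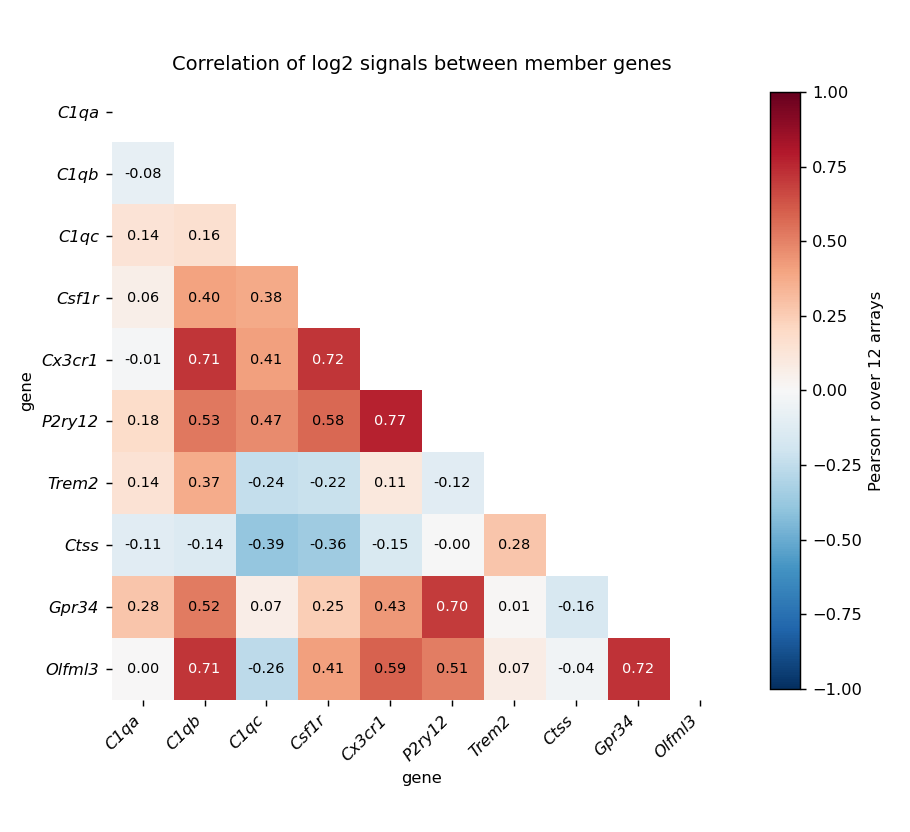
Pearson correlation of log2 signals over 12 arrays for the 45 pairs of member genes, 1 probe a gene; red is positive and blue negative. Cx3cr1 and P2ry12 hold the highest value at 0.77, and 8 of the 9 values of Ctss are below 0.

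Cx3cr1 and P2ry12 were the most alike pair, at r = 0.77 (rho 0.78; permutation p = 0.00481, adjusted p = 0.0977). With ethanol replicate 2 and control replicate 5, the arrays farthest from the median of Cx3cr1, left out it was 0.92, and within the groups it was 0.52 in ethanol mice and 0.94 in control mice. Next came Gpr34 with Olfml3 (0.72), Csf1r with Cx3cr1 (0.72), C1qb with Olfml3 (0.71), C1qb with Cx3cr1 (0.71) and P2ry12 with Gpr34 (0.70), each with an adjusted p of 0.0977. Without the 2 arrays farthest from the median of the first gene of each pair, these were 0.22, 0.66, -0.01, 0.50 and 0.90. The Gpr34 and Olfml3 value and the C1qb and Olfml3 value rested on the arrays left out, which included ethanol replicate 1 in both cases. The promoters of the most alike pair are shown for comparison. Neither holds the GAGGAA core in this window, so no letters are in capitals. The Cx3cr1 promoter is chr9:120068247-120068546, minus strand, and the P2ry12 promoter is chr3:59262936-59263235, minus strand.
Cx3cr1: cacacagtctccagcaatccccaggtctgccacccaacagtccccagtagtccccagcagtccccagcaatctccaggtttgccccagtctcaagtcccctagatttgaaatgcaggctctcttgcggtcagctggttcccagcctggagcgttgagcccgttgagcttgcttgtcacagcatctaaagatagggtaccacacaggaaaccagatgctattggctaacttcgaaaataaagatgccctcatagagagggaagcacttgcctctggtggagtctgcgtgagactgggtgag
P2ry12: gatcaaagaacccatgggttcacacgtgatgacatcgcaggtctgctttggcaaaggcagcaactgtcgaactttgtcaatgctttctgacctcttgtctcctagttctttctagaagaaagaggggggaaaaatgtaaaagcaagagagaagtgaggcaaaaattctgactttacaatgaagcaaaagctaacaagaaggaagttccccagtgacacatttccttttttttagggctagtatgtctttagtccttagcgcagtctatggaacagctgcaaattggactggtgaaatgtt
Neither carries the longer form.

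The C1q chains were weakly correlated over all arrays. C1qa correlated with C1qb at r = -0.08 and with C1qc at 0.14, and C1qb with C1qc at 0.16 (permutation p = 0.80, 0.669 and 0.613). For C1qb and C1qc, r was -0.90 over the 6 ethanol arrays and 0.84 over the 6 control arrays (exact permutation p = 0.0139 and 0.0403; adjusted over the 45 pairs 0.156 and 0.598). The difference between these values was not tested. Without ethanol replicate 1 the C1qb and C1qc value over all groups was 0.41, and without ethanol replicates 1 and 2, the arrays farthest from the median of C1qb, it was 0.69. It was 0.24 on beadchip 1 and 0.78 on beadchip 2. In ethanol mice the lowest C1qb values, replicates 1 and 2 at 10.02 and 10.04, stood with the highest C1qc values, 9.99 and 9.93. Both genes also separated by beadchip in ethanol mice. C1qb was 10.02 to 10.19 on beadchip 1 and 10.25 to 10.29 on beadchip 2, and C1qc was 9.87 to 9.99 and 9.76 to 9.85. The part of the beadchip in the value of -0.90 was not tested. In control mice replicates 2 and 4 were the highest for C1qb, at 10.42 and 10.34, and were also the highest for C1qc, at 10.04 and 10.02. C1qa had a median r of 0.06 with the other members, beside 0.01 with all other genes.

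**Figure D4:**
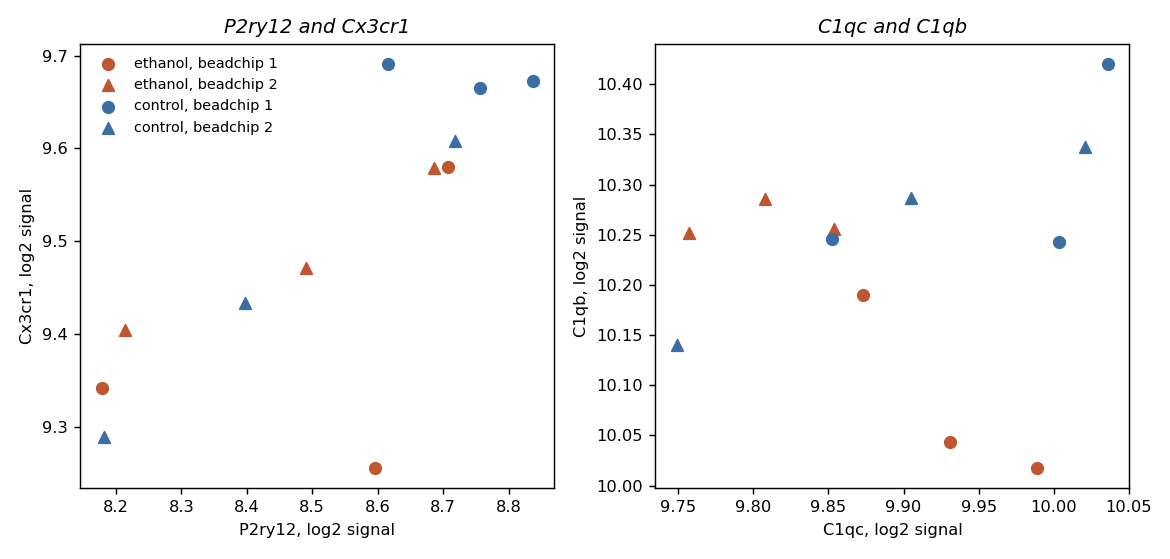
Log2 signals of P2ry12 and Cx3cr1 (left) and of C1qc and C1qb (right) on 12 arrays; red is ethanol, blue control, circles beadchip 1 and triangles beadchip 2. P2ry12 and Cx3cr1 increase together, while C1qc and C1qb run in opposite directions over the ethanol arrays and in the same direction over the control arrays. The ethanol arrays also separate by beadchip for both C1qc and C1qb.

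Ctss, C1qa and Trem2 had the lowest median correlations with the other members. Ctss had a median r of -0.14 with the other members, and 1 of its 9 values was positive, that with Trem2 at 0.28. C1qa had a median r of 0.06 and Trem2 of 0.07. The medians were 0.51 for P2ry12, 0.43 for Cx3cr1, 0.41 for Olfml3, 0.40 for C1qb and 0.38 for Csf1r, against 0.28 for Gpr34 and 0.14 for C1qc. Genes of other cell types on the same arrays are set beside these values. The median r was 0.97 among 12 genes of choroid plexus and ependyma, 0.78 among 7 genes of red blood cells and 0.74 among 11 genes of oligodendrocytes, while it was 0.18 among 10 neuronal genes and 0.03 among 12 astrocyte genes. Among 34 other homeostatic microglia genes it was 0.07. The choroid plexus list holds Ttr, the gene by which arrays stood apart. The lists, that of red blood cells among them, were chosen with earlier results of these data known. These medians are descriptions, and their differences were not tested.

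**Figure D5:**
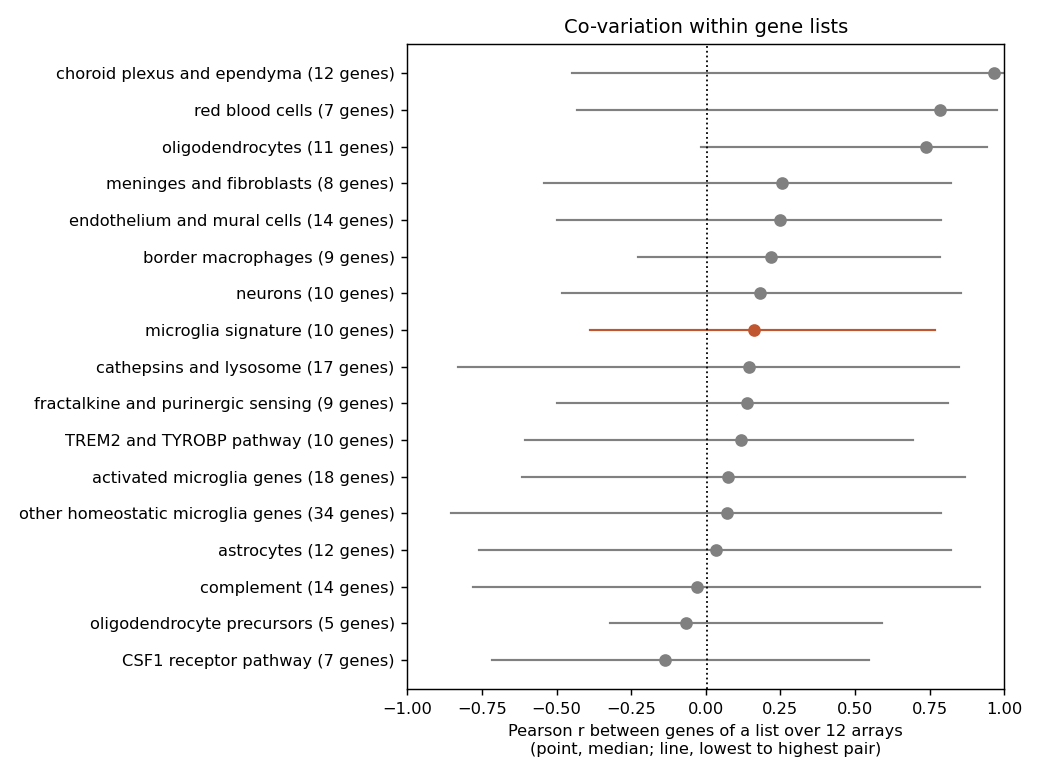
Median (point) and lowest to highest (line) Pearson r between the tested genes of each list over 12 arrays, with the microglia signature in red; the dotted line is the median of all pairs of tested genes, at 0.00235. The signature, with a median of 0.16, lies below choroid plexus (0.97), red blood cells (0.78) and oligodendrocytes (0.74). It also lies below meninges and fibroblasts (0.25), endothelium and mural cells (0.25), border macrophages (0.22) and neurons (0.18). The remaining lists lie below the signature, among them the 34 other homeostatic microglia genes (0.07). Pathway lists such as that of complement are shown whole here, so some of their genes are also members.

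The mean of the members on each array, each gene centred on its own mean, ran from -0.21 to 0.10 in ethanol mice (median -0.02) and from -0.06 to 0.13 in control mice (median 0.04), and its lowest array was ethanol replicate 1. It went with the mean of 34 other homeostatic microglia genes at r = 0.78 (rho 0.76), and at 0.69 without the 2 arrays farthest from the median of that list. Among microglia markers that are not members, Aif1 (the cytoskeletal protein IBA1) followed the member mean at r = 0.65, Fcrls at 0.61, Tyrobp at 0.53, Tmem119 at 0.43 and Siglech at 0.41, whereas Sall1, a transcription factor of microglial identity, was at -0.36. For lists of other cells r was 0.04 for border macrophages, -0.07 for neurons, -0.03 for astrocytes, 0.13 for oligodendrocytes, 0.31 for endothelium and mural cells, 0.07 for choroid plexus and ependyma and 0.23 for red blood cells, and it was -0.25 for the median intensity of the array. Single genes differed within these lists. In the list of endothelium and mural cells Flt1 was at 0.70 and Kcnj8 at -0.54, and the homeostatic microglia gene Tlr7 was at -0.55. A value such as that of Aif1 is thus not particular to microglia genes. All are descriptions over 12 arrays.

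By the same measure, the 10 genes outside the signature most like the member mean were Samsn1 (r = 0.88), Xk (0.87), Zbtb1 (0.84), Timmdc1 (0.84), Rpl28 (0.83), Cdc6 (0.82), Car15 (0.81), 1700071K01Rik (0.81), Gm14325 (0.81) and Slc4a1ap (0.80), over 12 arrays and 11391 genes. Xk, Zbtb1 and Cdc6 were detected on 9, 8 and 6 arrays, and the other 7 on all 12. The 5 genes with the lowest values were Ranbp9 (-0.86), Ppp1r8 (-0.85), Fkbp5 (-0.85), Pggt1b (-0.82) and Rtl8a (-0.82). Over all other genes the percentiles 5 and 95 were -0.50 and 0.52. None of these 15 genes stood on a gene list used here.

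Genes that work with the members were described from lists of their pathways, without the members and with 1 probe a gene. Over all tested probes, 49.3% were lower in ethanol mice and 4.81% had an unadjusted p under 0.05 by limma. Of the partners of the CSF1 receptor 3 were higher and 3 lower in ethanol mice, with the ligand genes Il34 at -0.07 and Csf1 at -0.04. Of these partners 0 of 6 had an unadjusted p under 0.05, a list too short to set apart from that share. Of 11 other complement genes 7 were higher and 4 lower, again with 0 under 0.05. Among them C2, which cooperates with C4 in the classical cascade, was at 0.22 (95% interval -0.07 to 0.52), the regulator gene Cd55 at 0.31, and C4b at 0.07. Of 9 genes of the TREM2 pathway 3 were higher and 6 lower, with Tyrobp, the signalling adaptor of TREM2, at -0.18 in all, -0.44 on beadchip 1 and 0.08 on beadchip 2.

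Of 6 genes of fractalkine and purine sensing 2 were higher and 4 lower. Cx3cl1, the neuronal ligand of CX3CR1, was at 0.11, the microglial potassium channel gene Kcnk13 at -0.21, and P2ry6, a receptor for UDP, at -0.11. Of 16 other genes of cathepsins and lysosomes 8 were higher and 8 lower, with Ctsf at 0.14 and Cst3, the cathepsin inhibitor cystatin C, at 0.06. None of the genes on these lists passed 0.05 unadjusted by limma, beside 4.81% of all probes.

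Of 34 other homeostatic genes 15 were higher and 19 lower, and 1 had an unadjusted p under 0.05, beside 4.81% of all probes. This was Tlr7, a sensor of single-stranded RNA, at 0.25 (95% interval 0.05 to 0.46; unadjusted p = 0.0206 and adjusted p = 1.00 by limma). Fcrls was at -0.26, with its other probes at -0.28 and -0.36, and Tmem119 at -0.09. Of 18 genes of activated microglia 7 were higher and 11 lower. Tlr4, the endotoxin receptor, was at -0.33 and the chemokine gene Ccl4 at -0.29 (unadjusted p = 0.0082 and 0.046, adjusted p = 0.997 and 1.00 by limma), but they were detected on 6 and 7 arrays. Of 9 border macrophage genes 7 were higher, with the scavenger receptor gene Cd163 at 0.55 (0.16 to 0.95; unadjusted p = 0.00995, adjusted p = 0.997 by limma), detected on 6 arrays. For Tlr4 and Cd163, 6 arrays is the fewest that the filter on detection lets through. Genes detected on so few arrays can enter the test through the group where they are higher, and that group is not given here. The values of Tlr4, Ccl4 and Cd163 are therefore not read as support for a change. Red blood cell genes were the only list with most tested genes under 0.05 unadjusted, 6 of 7, beside 4.81% of all probes. None passed an adjusted p of 0.05 by limma, and this list was chosen with earlier results of these data known. All 7 genes were lower in ethanol mice, with array means of 9.90 to 10.74 in ethanol mice and 10.31 to 11.03 in control mice. Their part in the member values was not tested.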

How the data were processed

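The deposited scanner table gives a bead intensity on a linear scale for each of 45281 probes and 12 arrays, not normalized between arrays (medians 132.6 to 152.1). A detection p-value stands beside each deposited intensity, per the file headers. The authors' processed intensities were deposited as well, with a median of 141.6 in each column. GenomeStudio 1.9.0 is named in the submitters' processing notes, without settings. No array file names a genome build.

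With limma 3.58.1 in R 4.3.3, background was removed by normexp through the detection p-values (offset 16), and quantile normalization and log2 followed, so differences of dim probes are drawn towards 0. The 21263 probes detected at 0.05 on 6 or more of the 12 arrays were tested. Probes were named by the platform annotation, with symbols updated through Entrez numbers: 18064 tested probes had 1 gene, 9 several and 3190 none. Fits used lmFit and eBayes, and p-values were adjusted by Benjamini-Hochberg across the 21263 probes. Beadchip values came from a model with 4 group means over all 12 arrays. Correlations used Python 3.11.15 and 100000 permutations, or all permutations for 6 or 8 arrays. The gene lists and members were chosen with earlier results of these data known. All members were named, up to 4 genes of each list by p, and the 10 most and 5 least alike genes by r; the defining markers of microglia were also named. No 2 arrays held the same values (highest correlation between arrays 0.993). The number of arrays limits the precision. In simulated data with 100 of 21263 probes changed at each size, the ethanol comparison recovered 52.4% of differences of 0.5 and 96.4% of differences of 1 on the log2 scale. A further 100 probes were raised by 2 on the ethanol arrays of beadchip 2. The noise was drawn separately for each probe and array, without the shared variation of real arrays, so recovery in the real data was not tested.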

Additional observations from a re-analysis of the deposited data

Results flagged for a closer look

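Ctss in control mice had 1 array far from the others: control replicate 3 was at 7.66 log2 signal, and the other 5 control arrays ran from 7.13 to 7.32. Its gap to the nearest array was 0.641 of the range of the group. Of 24 groups of 6 arrays examined over the 12 tested member probes this was 1, where chance gives about 1 in 20. The array was kept in the values above, and the Ctss difference without it is given with that gene.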

How the results depend on the processing

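The number of member probes past an adjusted p of 0.05 was 0 for each of the 5 limma comparisons under every alternative run: other detection filters, scaling to a common median, an offset of 50, the authors' processed table, array weights, a beadchip block, a replicate block (0 probes, also within beadchips), only the 6 arrays of a beadchip, and each array left out. Same-numbered ethanol and control arrays correlated at -0.25 to 0.33 in their deviations from the group means, and 1 of 6 was most like its own number, so the numbers were not taken as pairs. Differences close to 0 changed sign: C1qa with scaling to a common median (0.00104), Csf1r with that scaling (0.0258) and without the 4 arrays low in Ttr (0.0187), and Trem2 without those 4 (-0.0532). With single arrays left out, C1qa ran from -0.104 to 0.0107, Csf1r from -0.0619 to 0.0102 and Trem2 from -0.0316 to 0.0740. The count of correlated pairs was 1 of 45 on residuals from the mean of each group on each beadchip, where permutation treats 12 residuals as free, and 0 to 1 with single arrays left out. The median r of the pairs was 0.361 on those residuals, 0.329 without the 4 arrays low in Ttr, and 0.13 to 0.25 with single arrays left out. The cause was not tested. Of the other alternatives for single genes, 148 kept the direction with no array left out and 188 with 1 array left out. Dim probes (Csf1r probe 2, Ctss) have differences drawn towards 0 by the offset.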
